A study of Mus musculus with 27 samples.

Results

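The data described are the levels of 43 interferon response genes in CD8 T cells of the mouse, out of 35275 genes measured by RNA-seq. The 43 were listed by symbol for their known place in the response, at a time when earlier results of these data were known. Each symbol was found in the tables of all 3 stages. Cells came from P14 mice, whose transgenic T cell receptor recognizes a peptide of lymphocytic choriomeningitis virus, on a Rag2-/- background that makes no B cells and no other T cells, at an age of 6 to 10 weeks and of both sexes. WT P14+ mice were compared with lin28Tg mice (Lin28bTg P14+), in which the Lin28b protein blocks the maturation of let-7 microRNAs, and with let-7Tg mice (Let-7Tg P14+), in which doxycycline switches on a let-7g transgene at the Col1a1 locus. Each genotype was sampled as naive cells taken from lymph nodes and not treated in culture, as cells after 12 h with antibodies to CD3 (2 μg/mL) and CD28 (5 μg/mL), and as day 5 cytotoxic T lymphocytes (CTLs). CTLs were raised with irradiated splenocytes, anti-CD3 (2 μg/mL) and, from 48 h, IL-2 (100 U/mL). The cultures of all 3 genotypes held doxycycline at 2 μg/mL, and all mice, WT included, drank doxycycline beforehand. There were 3 libraries per group and 27 in all, described as biological replicates. Lin28b is already expressed in the thymus of lin28Tg mice, and neither the promoter that drives it nor the number of mice behind a library is given in the sources used here.

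Interferons act through 2 main routes. Type I interferons bind IFNAR1 and IFNAR2 and activate the factor ISGF3, which contains STAT2 and IRF9 and binds the interferon-stimulated response element (ISRE), and interferon gamma, a product of activated CD8 T cells themselves, binds IFNGR1 and IFNGR2 and acts through the gamma activated site (GAS). The genes switched on sense foreign RNA, stop its translation, cut it or keep virions out, and in CD8 T cells the response also reaches the immunoproteasome and the peptide transporter that supply MHC class I. Resting T cells carry a tonic level of these transcripts.

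The sequences below show the microRNA that separates the genotypes and promoter elements of some members, chosen among those with a match. The mature let-7g (RefSeq) is printed with its seed, bases 2 to 8, in capitals, and each promoter stretch (RefSeq, GRCm38.p6) runs 5′ to 3′ on the strand of its gene with the matched elements in capitals.
mmu-let-7g-5p: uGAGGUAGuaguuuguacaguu
Isg15 (chr4:156200830-156200909, minus strand): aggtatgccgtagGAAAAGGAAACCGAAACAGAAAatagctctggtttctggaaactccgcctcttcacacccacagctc
Oas3 (chr5:120777680-120777759, minus strand): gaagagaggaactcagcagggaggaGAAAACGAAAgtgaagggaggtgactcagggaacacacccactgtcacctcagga
Ifit1 (chr19:34640779-34640858, plus strand): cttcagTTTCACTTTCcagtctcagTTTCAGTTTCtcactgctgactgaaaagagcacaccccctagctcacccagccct
Irf1 (chr11:53769899-53769978, plus strand): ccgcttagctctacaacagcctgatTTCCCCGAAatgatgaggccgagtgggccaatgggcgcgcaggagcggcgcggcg
Igtp (chr11:58199476-58199555, plus strand): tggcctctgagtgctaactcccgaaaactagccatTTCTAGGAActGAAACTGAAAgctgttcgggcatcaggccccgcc
Gbp3 (chr3:142559964-142560025, plus strand): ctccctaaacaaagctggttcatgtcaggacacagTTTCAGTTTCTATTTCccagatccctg
Isg15 carries 3 overlapping ISRE matches, Oas3 has 1, and Ifit1 and Gbp3 have 2 each on the other strand. Irf1 has a GAS match and Igtp has both elements. In windows of 250 bases before to 50 after the start, available for 33 of the 43 members, the ISRE (GAAA, any 2 bases and GAAA, on either strand) was found in 17 (51.5%), against 1079 of 27025 genes (3.99%). TTCNNNGAA (GAS), which reads the same pattern on both strands, was found in 11 of 33 members (33.3%), against 2582 genes (9.55%). Both patterns stood in 6 members (18.2%) and in 166 genes (0.614%). Their matches did not overlap in Igtp, the only printed stretch with both, but a match of one overlapped the other in Bst2 and Ifitm3. Irf9, Irf7 and Xaf1, which are prominent in the CTL results, had neither pattern in their windows, and Dhx58 had no window. These are matches of letters and no measured binding.

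Libraries held 13862679 to 23590836 counted reads. Lin28b stood at 63.5 ± 6.16 (mean ± SD, n = 3), 10.9 ± 1.45 and 19.4 ± 4.70 FPKM (fragments per kilobase of gene length, scaled to the counted total of the library) in naive, 12 h and day 5 lin28Tg cells, and its highest mean in any other group was 0.0270. Col1a1 reads were highest in let-7Tg libraries, with means of 13.3 to 40.6 FPKM. Among 8 T cell markers none was at a mean of 0 in any group. Libraries of a group could stand apart across the list: WT naive replicate 1 was the highest of its group for 43 of 43 members, and let-7Tg 12 h replicate 2 was the highest of its group for 36 of 43. The summed level of the 43 members was 4686, 3274 and 2563 FPKM in the WT naive libraries, 4086, 3083 and 3532 in lin28Tg and 3053, 2849 and 3176 in let-7Tg. At 12 h these sums were 762, 812 and 767 in WT, 800.1, 872 and 851 in lin28Tg, and 837, 1038 and 644 in let-7Tg. In day 5 CTLs they were 1705, 1628 and 1678 in WT, 1257, 1573 and 1303 in lin28Tg, and 1827, 1831 and 1725 in let-7Tg. In these sums every lin28Tg CTL library was thus below every WT and let-7Tg CTL library, whereas the groups overlapped at both earlier stages. The sums are of FPKM as deposited, without the scaling between libraries that the tests used. Its factors were 0.988, 0.948 and 0.954 in lin28Tg, 1.016, 1.014 and 0.971 in WT and 1.048, 1.049 and 1.017 in let-7Tg CTLs. Divided by these factors, the sum of lin28Tg replicate 2 would lie above that of WT replicate 2.

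**Figure D1:**
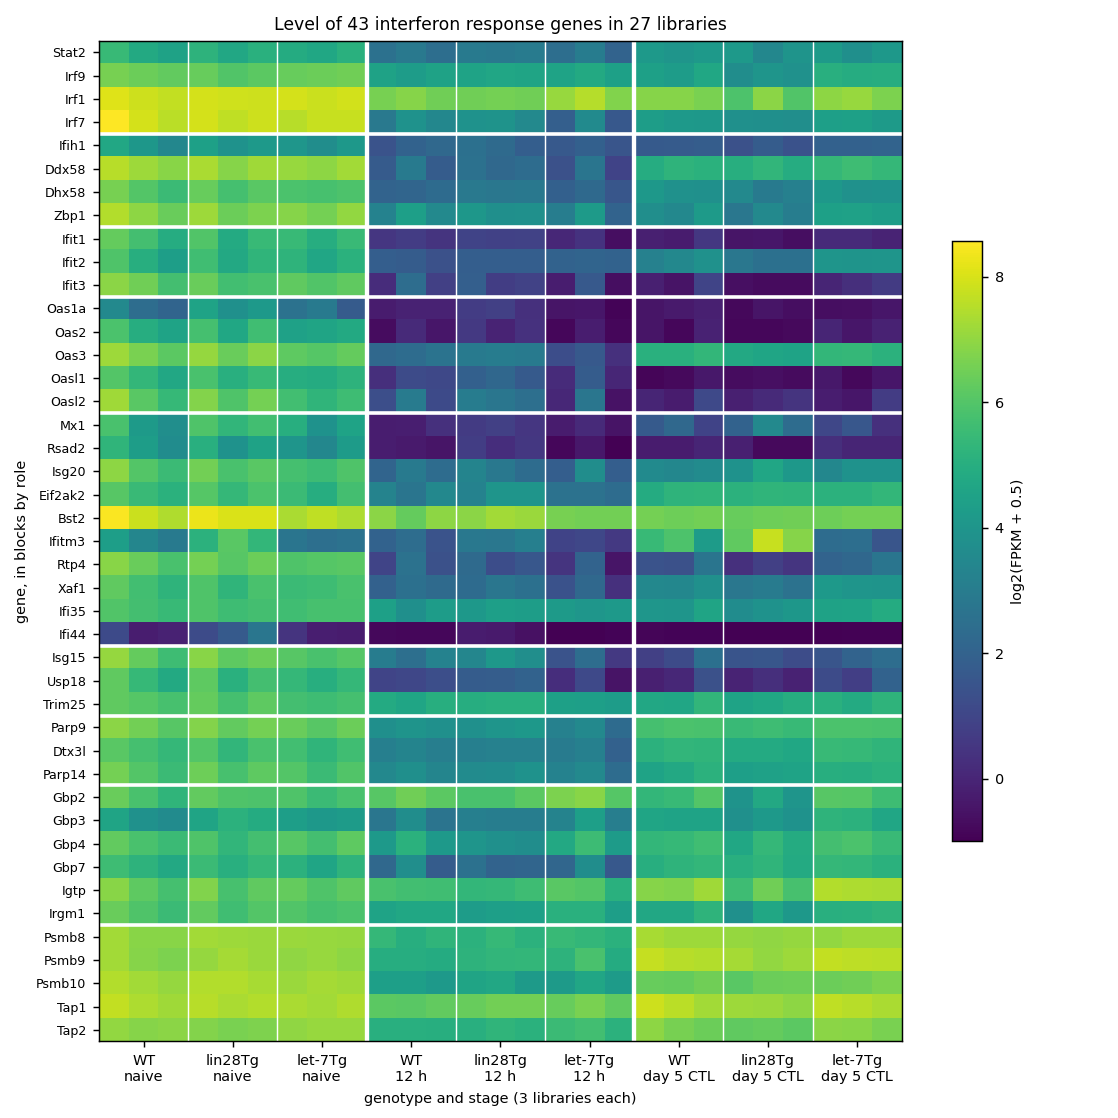
Level of each of the 43 members (rows, by role) in each of the 27 libraries (columns, by stage and genotype), as log2(FPKM + 0.5). Most rows are brightest in the 9 naive libraries, most IFIT and OAS rows are dark at 12 h and in day 5 CTLs, and the antigen processing rows are bright again in CTLs.

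Nearly all interferon response genes were lower in WT cells at 12 h than in naive WT cells. Between naive and 12 h cells 41 of the 43 members fell and 1 rose, where 35.3% of the 14453 genes tested fell and 35.7% rose (limma, adjusted p under 0.05). The median log2 difference was -2.37 over the members and -0.03 over all genes. Cell type markers fell as well: all 8 T cell markers were lower at 12 h (median log2 difference -1.64). So were 12 of 14 myeloid and dendritic markers (-1.55) and all 5 NK cell markers (-1.52), with 0 higher in these lists. Their part in the fall of the members was not tested. The 3 stages were deposited as separate tables, and stage cannot be told apart from any batch that followed it. In bulk RNA fewer cells of a type and less RNA per cell cannot be told apart.

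Along the pathway, all 4 transducers fell. Stat2, a subunit of ISGF3, stood at 43.3, 27.5 and 22.2 FPKM in naive WT libraries and at 5.40, 6.77 and 4.93 at 12 h (log2 difference -2.06, SE 0.21, adjusted p = 1.27e-08). Irf7, the factor that drives type I interferon genes, had the highest mean level of the 4 factors in naive cells, 379.5, 248 and 191 FPKM, and 6.84, 14.2 and 10.3 FPKM at 12 h (log2 difference -4.40, SE 0.31, adjusted p = 2.26e-11). The groups do not overlap for either gene, as for 40 of the 43 members and for 77.1% of all genes. Irf9 and Irf1, the factor induced by interferon gamma, fell by 1.75 and 0.99 on the log2 scale, so that Irf1 kept the highest level of the 4 at 12 h, 96.0, 113 and 88.7 FPKM.

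The largest falls belonged to sensors and effectors that act on foreign RNA. Oas2, a synthetase of the 2'-5' oligoadenylates that activate RNase L, went from 57.8, 31.0 and 23.1 to 0.129, 0.606 and 0.254 FPKM (log2 difference -5.30, SE 0.30, adjusted p = 7.86e-13). Ifit3 and Ifit1, partners that bind the 5' ends of foreign RNA, went from 119, 90.8 and 52.0 to 0.650, 4.85 and 1.24 FPKM (log2 difference -5.03, SE 0.52, adjusted p = 1.28e-08) and from 79.6, 52.3 and 29.8 to 0.934, 1.15 and 0.864 FPKM (log2 difference -4.90, SE 0.30, adjusted p = 2.71e-12). Ddx58, which encodes the RNA sensor RIG-I, went from 187, 144 and 115 to 2.90, 7.28 and 2.96 FPKM (log2 difference -4.79, SE 0.30, adjusted p = 3.86e-12). No 12 h library reached the level of any naive library for these 4 genes, a lack of overlap seen, in either direction, in 77.1% of all genes. By role, all 3 IFIT members fell (median log2 difference -4.90), all 5 OAS members (-4.20), all 4 sensors (-3.30), the 3 members around ISG15 (-3.16), all 10 other antiviral effectors (-2.68), the PARP9, DTX3L and PARP14 trio (-2.32) and all 5 antigen processing members (-1.65).

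The 6 interferon-induced GTPases, which attack the vacuoles of intracellular microbes, moved least, with a median of -0.89. Gbp2 was the one member called higher, at 83.8, 56.3 and 37.8 FPKM in naive and 68.0, 90.3 and 70.5 FPKM in 12 h libraries, with 1 naive library inside the 12 h range (log2 difference 0.67, SE 0.26, adjusted p = 0.0238). That call was lost without WT naive replicate 3, without WT 12 h replicate 2 and without scaling between libraries (0.42, adjusted p = 0.155). Igtp, at 117, 73.2 and 52.9 FPKM in naive and 55.7, 50.6 and 49.4 FPKM in 12 h libraries, was not called (log2 difference -0.31, SE 0.28, adjusted p = 0.324).

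By day 5 some members had risen again and others had fallen further. Against naive cells 31 members were lower and 5 higher in WT CTLs (32.7% of all genes each way), and against 12 h cells 22 were higher and 4 lower (33.1% and 34.4% of all genes). The 5 antigen processing members all rose from 12 h to day 5 (median log2 difference 1.85), as did Parp9, Dtx3l and Parp14 (1.82). Psmb9, the LMP2 subunit of the immunoproteasome, climbed from 30.6, 30.5 and 29.0 to 212, 187 and 177 FPKM (log2 difference 2.50, SE 0.14, adjusted p = 6.77e-13) and passed its naive level of 152, 114 and 101 FPKM (log2 difference 0.76, SE 0.14, adjusted p = 5.22e-05). The values of both groups need care, since 212 exon bases of Psmb9 overlap Tap1 and 458 of Parp9 overlap Dtx3l on opposite strands, and the strand setting of the counting is not given in the sources used here.

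Ddx58 and Oas3 rose again without reaching their naive levels. Ddx58 reached 29.7, 36.8 and 34.1 FPKM in CTLs (2.77, SE 0.30, adjusted p = 3.85e-08 against 12 h), and Oas3 moved from 4.22, 4.70 and 5.71 to 33.4, 33.4 and 40.0 FPKM (2.61, SE 0.24, adjusted p = 2.27e-09), still below its naive 144, 100.3 and 71.1 FPKM. All CTL libraries lay above all 12 h libraries for both genes, and these groups did not overlap for 69.6% of all genes. The largest falls from naive to CTL were those of Ifit3 (-6.18, SE 0.52, adjusted p = 7.61e-10), Oasl1 (-5.93, SE 0.34, adjusted p = 1.46e-12), Oasl2 (-5.87, SE 0.61, adjusted p = 2.05e-08) and Ifit1 (-5.52, SE 0.30, adjusted p = 5.52e-13). Oasl2, Oasl1 and Isg15, the ubiquitin-like modifier, fell further between 12 h and day 5, by 1.67, 1.63 and 1.57, and Gbp2 fell by 0.81 (log2 scale). The fall of Oasl2 was not called without WT 12 h replicate 2 or without WT CTL replicate 1 or 2. Isg15 was at 1.27, 1.75 and 5.24 FPKM in WT CTLs, where replicate 3 lay just above the lowest 12 h library.

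The members above their naive level in WT CTLs were Ifitm3 (1.73), Igtp (0.76), Psmb9 (0.76), Gbp3 (0.67) and Psmb8, which encodes LMP7 (0.33; log2 differences). Gbp3 lost its call without any 1 of 5 libraries, WT naive replicate 1 being the exception, and Igtp lost its call without WT naive replicate 2 or 3 or CTL replicate 3. Psmb8 was not called without WT naive replicate 3, and in a voom fit of the recovered reads its difference turned to -0.056 (adjusted p = 0.753), while Gbp3 and Igtp were not called.

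**Figure D2:**
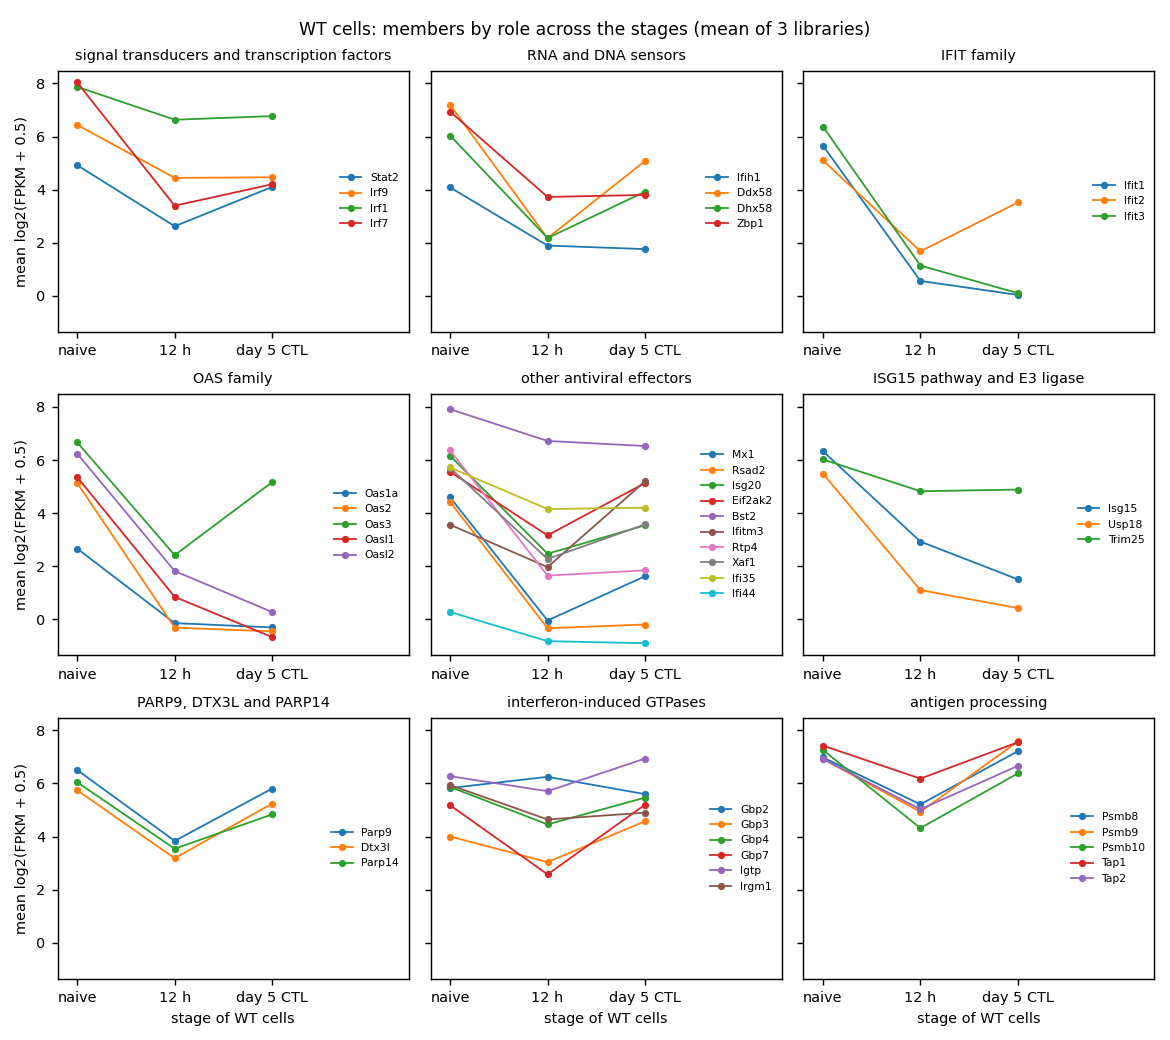
Mean log2(FPKM + 0.5) of each member over the 3 WT libraries in naive cells, at 12 h and in day 5 CTLs, with 1 panel for each role. Lines of the IFIT, OAS and ISG15 panels mostly drop at 12 h and stay low, and those of the antigen processing and PARP9 panels drop and climb back.

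The fall at 12 h was seen in each genotype: 41 members were lower and 0 higher in lin28Tg cells (38.6% and 34.9% of all genes), and 40 were lower and 1 higher in let-7Tg cells (35.0% and 34.4%). From 12 h to day 5, 19 members were higher and 15 lower in lin28Tg cells (32.8% and 33.5% of all genes; median log2 difference 0.18), and 28 were higher and 2 lower in let-7Tg cells (34.0% and 33.1%; median 1.13), with 22 higher and 4 lower in WT (median 0.85). Against naive cells, CTLs had 35 members lower and 1 higher in lin28Tg (34.2% and 33.8%) and 30 lower and 3 higher in let-7Tg (31.2% and 31.4%). Comparing these counts is no test of a difference between genotypes.

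In naive cells few members were called between genotypes. Between lin28Tg and WT 4 members were higher and 2 lower, in a comparison where 19.0% of the 13277 genes tested were higher and 15.8% lower. The median log2 difference of the members was 0.02, and the groups did not overlap for 5 of 43 members and for 49.0% of all genes. Ifitm3, a membrane protein that blocks virus entry, stood at 34.7, 68.3 and 40.4 FPKM in lin28Tg and 19.8, 10.0 and 7.20 in WT libraries, every lin28Tg library above every WT library (log2 difference 1.91, SE 0.33, adjusted p = 0.0028). It remained called whichever of the 6 libraries was left out, the one member of the 6 that did.

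The other 3 higher members were Oas1a, at 22.9, 13.5 and 17.3 FPKM against 10.8, 4.81 and 3.72 (log2 difference 1.45, SE 0.39, adjusted p = 0.0185), Ifi44 and Gbp3. Ifi44 was low in WT, 1.71, 0.360 and 0.432 FPKM, against 1.78, 2.78 and 6.28 in lin28Tg (log2 difference 1.57, SE 0.44, adjusted p = 0.0222). Gbp3 stood at 23.7, 34.9 and 29.3 against 23.3, 13.8 and 11.6 FPKM (log2 difference 0.82, SE 0.22, adjusted p = 0.0187). WT replicate 1 had the highest WT value for all 3, and the lin28Tg libraries were above every WT library throughout, if narrowly for Ifi44 and Gbp3. The lower members were Tap2, a subunit of the peptide transporter, at 111, 100.1 and 105 against 130.4, 115 and 118 FPKM (log2 difference -0.26, SE 0.07, adjusted p = 0.0177), and Irf9, at 80.8, 61.8 and 71.5 against 96.4, 85.7 and 77.7 FPKM (log2 difference -0.34, SE 0.11, adjusted p = 0.035), whose groups overlap. The count of 6 became 2 without WT replicate 2 and 3 without lin28Tg replicate 2 or lin28Tg replicate 3, and without WT replicate 1 it was 7, all of them higher.

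Markers of other cells moved with genotype in the naive libraries, and their part in these results was not tested. Summed levels of 14 myeloid and dendritic markers were 565 to 1086 FPKM in lin28Tg, 108 to 437 in WT and 86.5 to 192 in let-7Tg libraries, and 12 of the 13 tested were called higher in lin28Tg than in WT, with none at a mean of 0 in any group. Lyz2, the lysozyme of macrophages, was at 96.2, 491 and 272 FPKM in lin28Tg and 32.5, 25.0 and 19.2 in WT libraries. Sums of 7 erythroid and platelet markers were 495 to 1997, 153 to 292 and 1.88 to 39.0 FPKM, and those of 5 NK cell markers 27.8 to 83.2, 13.9 to 28.05 and 12.0 to 23.8 FPKM. Sums of 7 B cell markers were 31.8 to 43.3, 19.3 to 22.0 and 15.3 to 21.7 FPKM, and those of 4 CD4 T cell markers 24.1 to 83.5, 12.9 to 23.7 and 14.0 to 19.3 FPKM. Of these 4, Cd4 and Zbtb7b were called higher and Cd40lg and Foxp3 lower in lin28Tg, against WT and against let-7Tg alike. The lin28Tg library with the highest Ifitm3, replicate 2, was also the one with the highest Lyz2.

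No member was called between let-7Tg and WT naive cells (0.301% of all genes higher and 0.633% lower), and 3 had an unadjusted p under 0.05. The voom fit of recovered reads called 0 as well, with 4 under that p. The smallest adjusted p was that of Ifitm3, at 6.09, 5.14 and 5.64 FPKM in let-7Tg libraries, all below the WT values (log2 difference -1.002, SE 0.33, adjusted p = 0.198). The groups did not overlap for 2 members and for 24.0% of all genes. Of the 43 members 38 had a negative difference, with a median of -0.22, and WT replicate 1 had the highest WT value for each of them.

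Between lin28Tg and let-7Tg naive cells 5 members were higher and 1 lower, where 44.2% of all genes were called in either direction and 21.2% were lower. Ifitm3 differed most (2.91, SE 0.33, adjusted p = 0.0002), then Ifi44 (1.89, SE 0.44, adjusted p = 0.00716) and Oas1a (1.74, SE 0.39, adjusted p = 0.00582). Levels of Oas1a in let-7Tg libraries were 5.61, 6.91 and 2.87 FPKM, and those of Ifi44 were 0.853, 0.362 and 0.330 FPKM. Gbp3 (0.65, SE 0.22, adjusted p = 0.0383) and Bst2, which encodes tetherin (0.64, SE 0.22, adjusted p = 0.0416), were also higher, and Tap2 was lower (-0.34, SE 0.07, adjusted p = 0.00353). Bst2 read 312, 263 and 261 FPKM in lin28Tg and 165, 202 and 168 in let-7Tg libraries, and Tap2 read 127, 135 and 136 FPKM in let-7Tg. Ifi44, Ifitm3, Oas1a and Tap2 remained called whichever library was left out, whereas Bst2 and Gbp3 each lost their call without any of 5 libraries.

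At 12 h many members were higher in lin28Tg than in let-7Tg cells. In that comparison 18 of the 42 members tested were higher and 3 lower, where 16.3% of 12239 genes were higher and 14.5% lower. The median log2 difference was 0.67 over the members and -0.02 over all genes, and 31 of 42 were positive. The groups did not overlap for 19 of 42 members and for 46.3% of all genes. By role, 3 of 3 members around ISG15 were higher, 4 of 5 of the OAS family and 6 of the 9 tested other effectors, whereas none of the 5 antigen processing members was called and 2 of the 6 GTPases were lower. Ifi44 was not tested at this stage, with too few reads.

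Isg15 and Usp18, the protease that removes ISG15, were the members around ISG15 with the largest differences. Isg15 was at 9.99, 16.7 and 12.6 FPKM in lin28Tg, 7.60, 5.21 and 9.02 in WT and 2.25, 4.86 and 0.985 in let-7Tg libraries. All lin28Tg libraries were above all WT libraries, and all WT libraries above all let-7Tg libraries (log2 difference 2.27, SE 0.39, adjusted p = 0.00278, lin28Tg against let-7Tg). Usp18 was at 2.94, 3.04 and 3.52 FPKM in lin28Tg, 1.44, 1.55 and 1.98 in WT and 0.677, 1.67 and 0.210 in let-7Tg, where replicate 2 lay inside the WT range (log2 difference 1.60, SE 0.32, adjusted p = 0.00544). Trim25, the E3 ligase that acts on RIG-I, was at 30.8, 32.7 and 32.1 FPKM in lin28Tg and 21.1, 20.6 and 19.3 in let-7Tg (log2 difference 0.65, SE 0.10, adjusted p = 0.00174).

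Ifitm3, Oas3, Rsad2 and Oas1a had the smallest adjusted p of the higher members. Ifitm3 was at 6.65, 6.36 and 8.17 FPKM in lin28Tg, 3.56, 4.84 and 2.26 in WT and 1.40, 1.55 and 1.01 in let-7Tg libraries (log2 difference 2.07, SE 0.22, adjusted p = 0.000236). Oas3 was at 7.18, 7.64 and 7.27 FPKM in lin28Tg, 4.22, 4.70 and 5.71 in WT and 1.87, 2.68 and 0.766 in let-7Tg (log2 difference 1.90, SE 0.27, adjusted p = 0.000987). The 3 genotypes did not overlap for either gene. Rsad2, which encodes viperin, was low throughout, at 1.18, 0.697 and 0.959 FPKM in lin28Tg, 0.355, 0.299 and 0.228 in WT and 0.0676, 0.258 and 0 in let-7Tg (log2 difference 1.26, SE 0.19, adjusted p = 0.0012). Oas1a was at 1.14, 1.25 and 0.742 FPKM in lin28Tg, 0.339, 0.443 and 0.440 in WT and 0.234, 0.243 and 0.0329 in let-7Tg (log2 difference 1.21, SE 0.18, adjusted p = 0.00134). At such levels the added 0.5 FPKM makes the printed log2 difference smaller than the ratio of the FPKM values.

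The other higher members were Dhx58 (0.91), Eif2ak2, which encodes the kinase PKR (1.22), Ifit1 (0.96), Mx1 (0.87), Parp9 (0.96), Oas2 (0.93), Xaf1 (1.25), Irf7 (1.42), Bst2 (0.54), Oasl1 (1.29) and Parp14 (0.69), as log2 differences. The 3 lower members are known as targets of interferon gamma. Irf1 was at 90.5, 93.9 and 88.7 FPKM in lin28Tg and 136, 179 and 108 in let-7Tg, without overlap (log2 difference -0.59, SE 0.14, adjusted p = 0.0111). Gbp4 was at 15.3, 13.5 and 12.3 against 27.1, 46.5 and 18.5 FPKM (log2 difference -1.03, SE 0.31, adjusted p = 0.0312), and Gbp2 at 56.7, 55.4 and 70.1 against 103, 118 and 66.1 FPKM (log2 difference -0.61, SE 0.18, adjusted p = 0.0323), with overlap for Gbp2 only.

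Leaving out any 1 of the 6 libraries left 13 to 24 members called. The count was 13 without lin28Tg replicate 2, without lin28Tg replicate 3 and without let-7Tg replicate 1. Dhx58, Eif2ak2, Ifit1, Ifitm3, Irf1, Isg15, Oas1a, Oas3, Rsad2, Trim25 and Usp18 were called each time. Without let-7Tg replicate 2, the library that stood high across the list, 23 members were higher and 1 lower, and Bst2, Gbp2 and Gbp4 were no longer called.

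Against WT, fewer members passed. In lin28Tg 12 h cells 4 were higher and 0 lower (6.10% and 2.39% of all genes), with a median of 0.24 and 35 of 42 differences positive. They were Rsad2 (0.85, SE 0.19, adjusted p = 0.0229), Ifitm3 (0.93, SE 0.22, adjusted p = 0.0325), Oas1a (0.75, SE 0.18, adjusted p = 0.0345) and Dhx58, which encodes the sensor regulator LGP2 (0.63, SE 0.16, adjusted p = 0.0368). Dhx58 was at 6.72, 6.44 and 6.59 FPKM in lin28Tg and 3.68, 3.83 and 4.61 in WT libraries, and for none of the 4 did the groups overlap. That held for 16 of 42 members and for 34.8% of all genes. The count was 0 to 2 whichever of the 6 libraries was left out, and 0 in the voom fit of recovered reads, where 14 had an unadjusted p under 0.05.

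In let-7Tg 12 h cells 3 members were lower than in WT and 0 higher (1.87% and 1.36% of all genes), with a median of -0.25 and 30 of 42 differences negative. Oas3 (-1.36, SE 0.27, adjusted p = 0.0373), Ifitm3 (-1.14, SE 0.22, adjusted p = 0.0362) and Trim25 (-0.47, SE 0.10, adjusted p = 0.0435) were the 3, the last at 28.1, 24.2 and 31.7 FPKM in WT libraries. The groups did not overlap for any of them, as for 10 of 42 members and for 25.2% of all genes. The count was 0 without WT replicate 1 or WT replicate 3, 1 without WT replicate 2, and 4 without let-7Tg replicate 2, when Ifitm3 and Trim25 were not called. Both comparisons use the same WT libraries, so that they are not independent of each other.

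Markers also moved at 12 h, with a part in these results that was not tested. Sums of the myeloid and dendritic markers were 24.0 to 43.8 FPKM in lin28Tg, 16.9 to 30.0 in WT and 8.46 to 19.2 in let-7Tg libraries, with none of the 14 at a mean of 0 in any group and 6 of 11 called higher in lin28Tg than in let-7Tg. Erythroid and platelet sums were 83.4 to 693, 26.1 to 103 and 0.774 to 4.45 FPKM. Sums of the B cell markers were at most 3.30 FPKM in any 12 h library, those of the CD4 T cell markers at most 8.20 and those of the NK cell markers at most 9.62.

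In day 5 CTLs most differences between these genotypes were negative. Between lin28Tg and let-7Tg CTLs 17 of the 40 members tested were lower and 2 higher, where 10.7% of 13009 genes were lower and 10.9% higher. The median log2 difference was -0.48, and 33 of 40 were negative. The groups did not overlap for 30 of 40 members and for 42.4% of all genes. By role, 4 of the 6 GTPases, 2 of 4 transducers, 2 of 4 sensors, 2 of 5 antigen processing members and 4 of the 9 tested other effectors were lower, and none of the 3 members around ISG15 was called. Oas1a, Oasl1 and Ifi44 were not tested in CTLs for lack of reads. Same-numbered CTL libraries of the 3 genotypes deviated together (r = 0.245 to 0.716 over 9 pairs), though the labels give only a number. With that number as a block 25 members were lower and 3 higher (36.4% of all genes called, against 21.6% without it). They included all 19 and added Ddx58, Gbp4, Ifit3, Isg20, Oas2, Parp14, Parp9, Tap1 and Usp18.

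Irf9, the DNA-binding subunit of ISGF3, had the smallest adjusted p of the lower members. It was at 12.4, 15.3 and 13.7 FPKM in lin28Tg, 21.0, 19.1 and 25.2 in WT and 31.9, 29.6 and 30.8 in let-7Tg CTLs, 3 separate ranges (log2 difference -1.03, SE 0.14, adjusted p = 0.00128, lin28Tg against let-7Tg). Xaf1, an effector named for its binding to the apoptosis inhibitor XIAP, was at 6.38, 7.45 and 5.64 FPKM in lin28Tg, 10.6, 10.4 and 13.6 in WT and 17.0, 15.5 and 15.1 in let-7Tg (log2 difference -1.13, SE 0.15, adjusted p = 0.00129). Ifit2 was at 6.39, 5.25 and 5.27 FPKM in lin28Tg, 8.78, 10.7 and 14.0 in WT and 15.3, 15.1 and 15.5 in let-7Tg (log2 difference -1.27, SE 0.17, adjusted p = 0.00132). Both show lin28Tg lowest and let-7Tg highest with no overlap among the 3 genotypes.

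The 4 lower GTPases were Gbp3, Gbp2, Igtp and Irgm1. Gbp3 was at 13.6, 17.8 and 14.1 FPKM in lin28Tg, 24.2, 23.1 and 22.8 in WT and 36.6, 34.6 and 25.1 in let-7Tg (log2 difference -0.94, SE 0.15, adjusted p = 0.00314). Gbp2 was at 14.6, 26.6 and 15.3 FPKM in lin28Tg, 40.0, 43.4 and 63.5 in WT and 67.9, 65.7 and 48.3 in let-7Tg (log2 difference -1.59, SE 0.27, adjusted p = 0.00345), and lin28Tg replicate 2 was its highest lin28Tg library, still below every WT library. Igtp (-1.32) and Irgm1 (-0.80) differed in the same direction, although 162 exon bases of Igtp overlap the related Irgm2. Irgm1 was not called in 5 of the 6 fits that left out 1 library.

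The remaining lower members were Rtp4 (-1.69), the sensor Zbp1 (-1.18), Ifi35 (-0.69), Dhx58 (-0.65), Rsad2 (-0.61), Oas3 (-0.53), Irf7 (-0.48), Dtx3l (-0.48), Tap2 (-0.47) and Psmb9 (-0.37), as log2 differences. Rtp4 was at 0.759, 1.24 and 0.888 FPKM in lin28Tg and 3.60, 4.04 and 6.05 in let-7Tg. Mx1 was higher, at 3.48, 10.8 and 4.77 FPKM in lin28Tg, 2.75, 4.22 and 1.41 in WT and 1.53, 2.51 and 0.739 in let-7Tg CTLs (log2 difference 1.75, SE 0.47, adjusted p = 0.0276). Mx1 lost its call without lin28Tg replicate 2 or 3 and without let-7Tg replicate 1 or 3. The 6 fits that left out 1 library called 13 to 18 members. Dtx3l, Gbp2, Gbp3, Ifit2, Ifitm3, Igtp, Irf7, Irf9, Oas3, Psmb9, Rtp4, Xaf1 and Zbp1 were called in all of them.

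Against WT CTLs, 7 members were lower in lin28Tg and 0 higher (2.31% and 2.04% of all genes), with a median of -0.37 and 34 of 40 differences negative. They were Ifit2 (-0.86, SE 0.17, adjusted p = 0.0291), Gbp2 (-1.32, SE 0.27, adjusted p = 0.0296), Xaf1 (-0.73, SE 0.15, adjusted p = 0.0338), Psmb9 (-0.38, SE 0.08, adjusted p = 0.0353), Dtx3l (-0.40), Dhx58 (-0.68) and Irf9 (-0.58, SE 0.14, adjusted p = 0.0496). Psmb9 was at 154, 128 and 143 FPKM in lin28Tg, below all WT libraries, and the groups did not overlap for the other 6 either. Lack of overlap was seen in 22 of 40 members and in 24.2% of all genes. With the replicate block 14 members were lower and 3 higher (13.5% of all genes called), the 7 and 10 more, Gbp3, Ifitm3, Igtp, Irf7, Isg20, Mx1, Oas3, Rtp4, Tap1 and Tap2. Without the block the count was 0 to 4 whichever of the 6 libraries was left out, and 0 when only those 6 were fitted, with 19 at an unadjusted p under 0.05. The voom fit of recovered reads called 10 lower and 1 higher.

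Only 1 member, Ifitm3, was called between let-7Tg and WT CTLs, lower in let-7Tg (0.361% of all genes lower and 0.577% higher), with the replicate block as without it. The median of the members was 0.12, and 30 of 40 differences were positive. The CTL comparisons with WT share the WT libraries as well.

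The erythroid and platelet sums were 0.295 to 1.86 FPKM in lin28Tg, 0.979 to 1.40 in WT and 1.01 to 1.84 in let-7Tg libraries. The myeloid and dendritic sums were 123 to 307, 75.9 to 144 and 80.4 to 120.3 FPKM. Most of these came from Ly6c2, which CD8 T cells also express, at 148, 112 and 293 FPKM in lin28Tg and 82.1, 68.9 and 140.5 in WT CTLs. Lyz2, Siglech, Csf1r, S100a8 and Clec9a were at or near 0 in every CTL group, and 4 of the 5 markers tested were higher in lin28Tg than in let-7Tg. The NK cell sums, 60.8 to 158, 8.35 to 40.7 and 2.15 to 4.79 FPKM, were nearly all Klrb1c, and Ncr1 was at or near 0. The part of these markers in the results was not tested. B cell sums were 3.32 to 8.87, 4.10 to 6.07 and 4.47 to 5.68 FPKM.

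**Figure D3:**
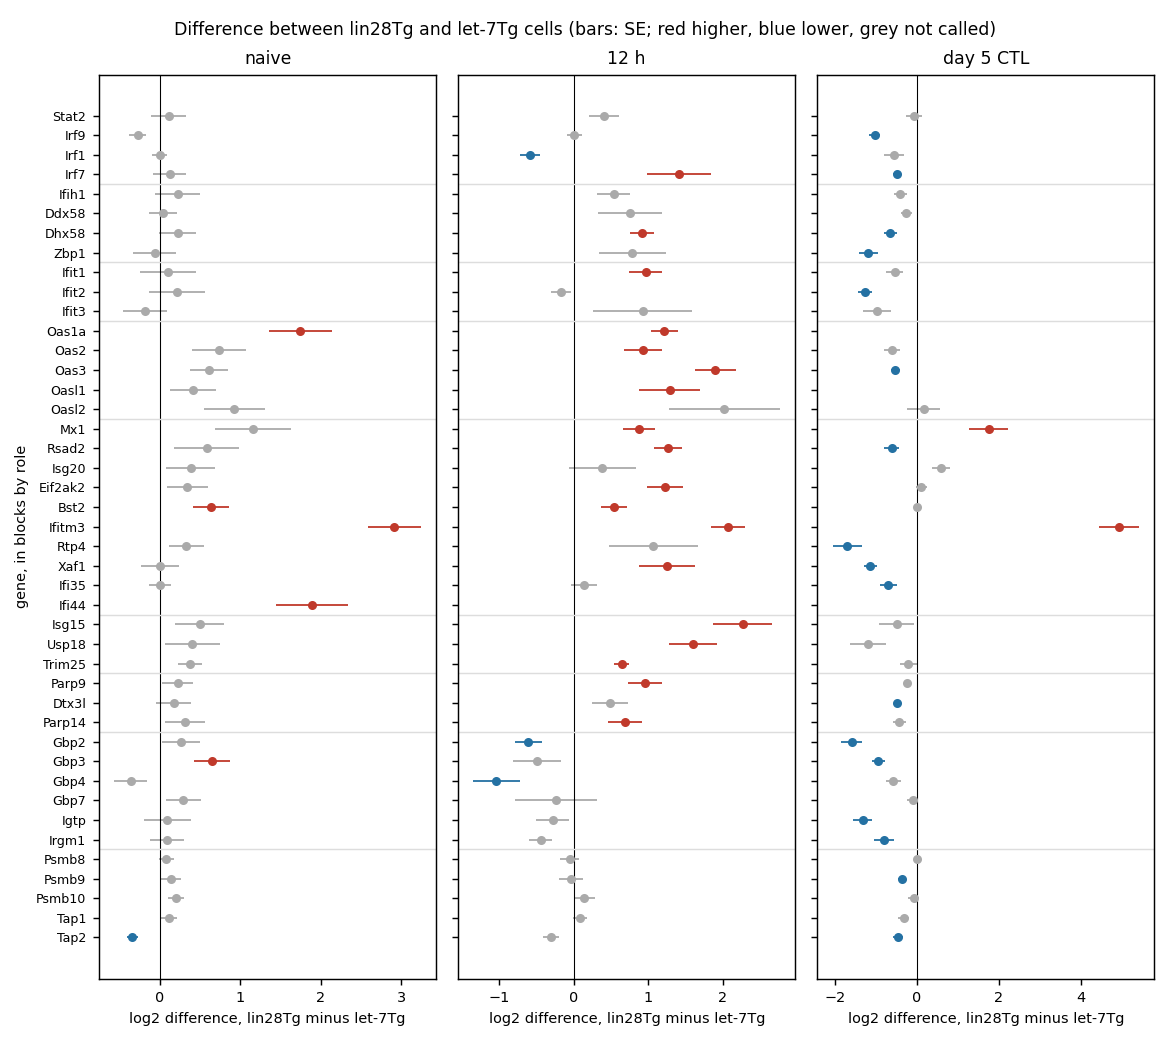
Difference of lin28Tg minus let-7Tg for each member in naive cells, at 12 h and in day 5 CTLs, as the log2 difference with its SE (bars); red is called higher, blue called lower and grey not called. At 12 h 18 members are red and 3 blue, and in CTLs 2 are red and 17 blue.

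The turn between 12 h and day 5 was tested as a difference of differences in 1 model of all 27 libraries, and is given only for genes with enough reads to be tested at both stages, which leaves out Oas1a, Oasl1 and Ifi44. For lin28Tg against let-7Tg, 20 of the 40 members differed between these stages, where 21.2% of 11690 genes did. In 19 of them the difference fell, by 0.86 to 2.85 on the log2 scale, and in 1, Ifitm3, it grew. The smallest adjusted p was that of Oas3 (log2 change of the difference -2.47, SE 0.34, adjusted p = 1.33e-05), which went from the higher to the lower side of let-7Tg, followed by Irf9 (-1.06, SE 0.17, adjusted p = 6.50e-05) and Xaf1 (-2.43, SE 0.42, adjusted p = 0.000224). Dhx58, Irf7, Oas3, Rsad2 and Xaf1 were the 5 members called higher at 12 h and lower in CTLs, Ifitm3 and Mx1 were called higher at both, and Gbp2 lower at both. Of the 40 members tested at both stages 23 had a positive difference at 12 h and a negative one in CTLs, and 1 had the opposite.

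The levels behind this turn are shown by 3 of these 5 members. Oas3 was 26.8, 24.0 and 22.7 FPKM in lin28Tg and 39.4, 40.9 and 34.7 FPKM in let-7Tg CTLs, after 7.18, 7.64 and 7.27 FPKM in lin28Tg and 1.87, 2.68 and 0.766 FPKM in let-7Tg at 12 h. WT lay between them at 12 h, and in CTLs its range, 33.4, 33.4 and 40.0 FPKM, overlapped that of let-7Tg. Dhx58 was 6.72, 6.44 and 6.59 FPKM in lin28Tg and 3.34, 4.27 and 2.46 in let-7Tg at 12 h, and in CTLs it was 10.9, 7.11 and 8.40 FPKM in lin28Tg and 16.6, 13.9 and 14.4 in let-7Tg. For this gene the 12 h and the CTL ranges of lin28Tg and let-7Tg did not overlap. Irf7 at 12 h was 14.2, 14.7 and 11.0 FPKM in lin28Tg and 3.18, 11.5 and 2.64 in let-7Tg, where replicate 2 alone reached the WT range, and in CTLs it was 13.6, 12.9 and 12.9 FPKM in lin28Tg and 20.7, 21.4 and 17.9 in let-7Tg.

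Against WT, 4 members changed between 12 h and day 5 in lin28Tg (6.71% of genes tested at both stages): Dhx58 (-1.29, SE 0.28, adjusted p = 0.00609), Irf9 (-0.71, SE 0.17, adjusted p = 0.0106), Tap1 (-0.66, SE 0.17, adjusted p = 0.0175) and Psmb9. In let-7Tg against WT, 1 did, Oas3 (1.47, SE 0.34, adjusted p = 0.0303; 1.52% of such genes). From naive cells to CTLs 16 of 40 members changed for lin28Tg against let-7Tg (22.8% of such genes), led by Gbp2 (-1.89, SE 0.36, adjusted p = 0.000506), Irf9 (-0.78, SE 0.17, adjusted p = 0.00115) and Gbp3 (-1.62, SE 0.38, adjusted p = 0.00277). For lin28Tg against WT 3 did (12.0%), Gbp2 (-1.49, SE 0.36, adjusted p = 0.00688), Gbp3 (-1.41, SE 0.38, adjusted p = 0.0132) and Psmb9 (-0.58, SE 0.20, adjusted p = 0.0484). From naive cells to 12 h, where Ifi44 alone is left out, 3 of 42 changed for lin28Tg against let-7Tg (11.2% of such genes), Oas3 (1.30, SE 0.34, adjusted p = 0.0121), Gbp3 (-1.15, SE 0.38, adjusted p = 0.0472) and Isg15 (1.78, SE 0.59, adjusted p = 0.0495). By limma 0 changed for lin28Tg against WT over that step (5.76% of such genes), with 4 at an unadjusted p under 0.05. For let-7Tg against WT 0 changed from naive cells to 12 h (0.0340%) and 0 to CTLs (0.254%), with 3 and 2 at an unadjusted p under 0.05. The smallest adjusted p were then those of Irf9 (0.44, SE 0.17, adjusted p = 0.116), Oas3 (-0.87, SE 0.34, adjusted p = 0.473) and Ifitm3 (-2.12, SE 0.57, adjusted p = 0.13).

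**Figure D4:**
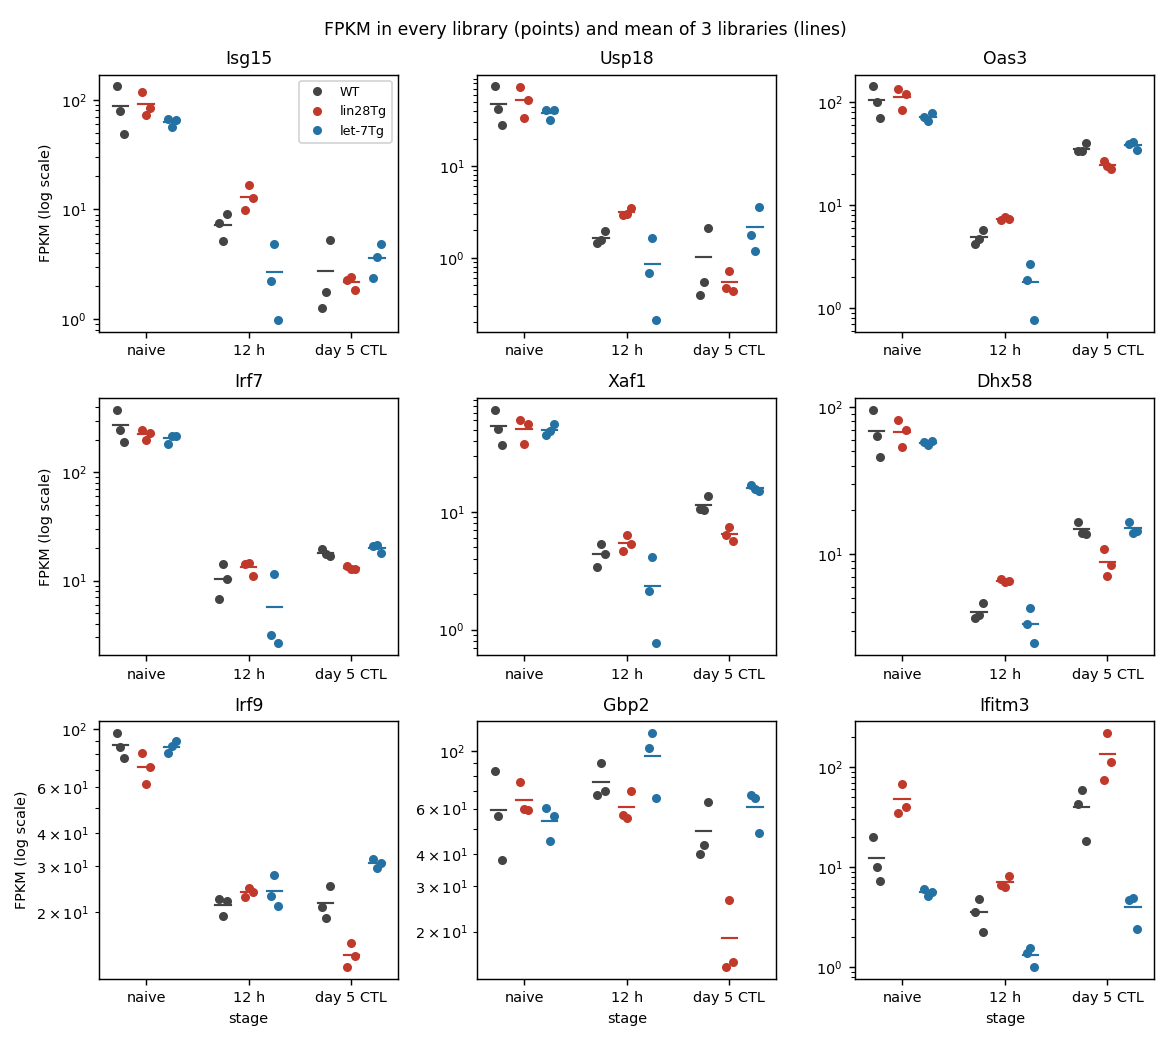
FPKM (log axis) of 9 members in each library of the 3 genotypes at the 3 stages; points are libraries and lines are group means. Oas3, Xaf1, Dhx58 and Irf7 are highest in lin28Tg at 12 h and lowest there in CTLs, and Ifitm3 is highest in lin28Tg at each stage.

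Ifitm3 was the member whose difference grew. In CTLs it stood at 74.2, 219 and 113 FPKM in lin28Tg, 42.96, 59.6 and 18.4 in WT and 4.74, 4.95 and 2.39 in let-7Tg libraries, 3 separate ranges (log2 difference 4.92, SE 0.49, adjusted p = 0.000351, lin28Tg against let-7Tg). It was higher than at 12 h in WT (3.09, SE 0.41, adjusted p = 5.84e-07) and in lin28Tg (3.98, SE 0.41, adjusted p = 1.49e-08), and its difference between lin28Tg and let-7Tg grew over that step (2.81, SE 0.57, adjusted p = 0.00112). Its difference from WT was not called for lin28Tg without the replicate block (1.80, SE 0.49, adjusted p = 0.0772) and was called for let-7Tg (-3.12, SE 0.49, adjusted p = 0.0361). That last call held in 1 of the 6 fits that left out 1 library, the one without WT replicate 3, and was lost with no filter on low values (adjusted p = 0.063) and in a fit of the 6 libraries alone (adjusted p = 0.083).

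The neighbouring Ifitm1 and Ifitm2, which are not on the list but code for related proteins, had the same order in CTLs. Ifitm1 was at 1442, 2395 and 1801 FPKM in lin28Tg, 396, 513 and 127 in WT and 23.4, 16.3 and 11.1 in let-7Tg, and Ifitm2 at 898, 1183 and 1017 FPKM in lin28Tg, 537, 633 and 158 in WT and 66.9, 83.4 and 32.3 in let-7Tg. The 3 genotypes did not overlap for either. Ifitm3 shares sequence with these relatives, and how the counting treated reads that fit more than 1 of them is not given in the sources used here. In all 3 genes WT replicate 3 was the lowest WT library.

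The ligand side was read from a list of 10 interferon genes, of which Ifng alone had enough reads to be tested. At 12 h Ifng was at 1309.7, 1666 and 1473 FPKM in lin28Tg, 227, 294 and 169 in WT and 90.5, 127 and 56.7 in let-7Tg libraries, without overlap (log2 difference 4.09, SE 0.26, adjusted p = 2.12e-05, lin28Tg against let-7Tg). In CTLs it was at 3.74, 15.7 and 4.59 FPKM in lin28Tg and 0.354, 0.527 and 0.629 in WT. None of the other 9 genes, of types I and III, had enough reads to be tested at any stage. Ifng was higher in lin28Tg than in let-7Tg cells at 12 h, where Irf1, Gbp2 and Gbp4 were lower. The other 4 GTPases and the 5 antigen processing members were not called there. Gbp2 and Gbp4 lost their calls without let-7Tg replicate 2. A link between Ifng and these members was not tested.

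Receptors and kinases were all 7 detected in every group, and their summed level in WT was 1078 to 1211 FPKM in naive cells, 349 to 412 at 12 h and 1093 to 1420.2 in CTLs. From naive to 12 h WT cells 6 of them were lower and 1 higher (35.3% and 35.7% of all genes). Between lin28Tg and let-7Tg, 2 were higher and 0 lower at 12 h (16.3% and 14.5% of all genes). In CTLs 0 were higher and 3 lower (10.9% and 10.7% of all genes). The 3 were Ifnar2 (-0.91, SE 0.15, adjusted p = 0.00314), Ifnar1 (-0.39, SE 0.09, adjusted p = 0.013) and Ifngr2 (-1.26, SE 0.36, adjusted p = 0.0337).

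A further list of 65 interferon-induced genes outside the 43 was also chosen with earlier results of these data known. It had 49 lower and 9 higher at 12 h in WT (35.3% and 35.7% of all genes). Between lin28Tg and let-7Tg, 18 of the 61 tested were higher and 3 lower at 12 h (median log2 difference 0.32), and 3 of 59 were higher and 28 lower in CTLs (median -0.49). Among the nucleic acid sensing adaptors 6 of 11 were higher and none lower at 12 h, and 1 of 9 was higher and 3 were lower in CTLs. Of 15 antigen presentation genes 2 were higher and 2 lower at 12 h, and 7 were lower in CTLs. Over all genes 16.3% were higher and 14.5% lower at 12 h, and 10.9% and 10.7% in CTLs. The antigen presentation counts at 12 h were near these shares.

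Members with and without an ISRE match were set side by side for the lin28Tg and let-7Tg comparison. At 12 h the 17 with a match had a median log2 difference of 0.76, with 8 higher and 1 lower, and the 15 tested without one had a median of 0.14, with 4 higher and 1 lower (16.3% of all genes higher and 14.5% lower). In CTLs the 16 tested with a match had a median of -0.51, with 1 higher and 6 lower, and the 14 without one a median of -0.42, with 0 higher and 7 lower (10.9% and 10.7% of all genes). From naive to 12 h WT cells the medians were -2.15 and -2.03. Missing windows left 10 members out of these counts.

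The let-7 seed site, CTACCTC, was found in an annotated 3' UTR of 7 of the 43 members (16.3%), against 2000 of 21020 protein-coding genes (9.51%). They were Gbp7, Isg20, Oas2, Oasl2, Parp14 with 2 sites, Stat2 and Trim25. Of these 7, 3 were lower in let-7Tg than in lin28Tg cells at 12 h, Oas2, Parp14 and Trim25. That is the same share as 18 of all 42 members tested, where 16.3% of all genes were lower in let-7Tg. None of the 7 was called between these genotypes in naive cells or in CTLs. A match of letters is no measure of repression.

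Many members lie in clusters (GENCODE annotation, GRCm38). Oas1a (ENSMUSG00000052776, chr5:120896256-120907521, minus strand), Oas2 and Oas3 (ENSMUSG00000032661, chr5:120753098-120777661, minus strand) are neighbours on chromosome 5, and Ifit1 (ENSMUSG00000034459, chr19:34640871-34650009, plus strand), Ifit2 and Ifit3 are neighbours on chromosome 19. Gbp2 (ENSMUSG00000028270, chr3:142620602-142638008, plus strand), Gbp3 and Gbp7 share a stretch of chromosome 3, and Psmb8, Psmb9, Tap1 and Tap2 lie within the MHC region of chromosome 17. Isg15 (ENSMUSG00000035692) is at chr4:156199424-156200818, minus strand, and Ifitm3 (ENSMUSG00000025492) at chr7:141009586-141010770, minus strand. Irf9 (ENSMUSG00000002325) is at chr14:55603571-55610030, plus strand. Trim25, Dhx58 and Ifi35 lie 5.92, 5.74 and 6.5 Mb from Col1a1, the locus of the let-7g transgene on chromosome 11. Of these 3, Trim25 was the one called between let-7Tg and WT, at 12 h.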

How the data were processed

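Bulk RNA-seq was made from mouse P14 CD8 T cells lysed in TRIzol, with 3 libraries in each of 9 groups (3 genotypes by 3 stages). Per the labels and the methods, the authors aligned reads to GRCm38/mm10 with TopHat2 2.0.9 and Bowtie2 2.0.6, counted them per gene with HTSeq 0.6.1 and deposited FPKM for each library in 1 table per stage. The annotation release and the strand setting are not given in the sources used here. Columns of the authors' own comparisons (group mean read counts, log2 fold changes, p-values, adjusted p-values and heatmap clusters) were not used.

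Whole reads were recovered from the FPKM steps for 462839 of 462839 values (tolerance 0.01), giving 13862679 to 23590836 reads per library, and no pair of replicates was alike within counting noise (chi-square per gene 4.40 to 58.1). FPKM printed are as deposited, also in sums and in the overlap of groups. For tests they were scaled between libraries by the trimmed mean of M values (trims of 30% and 5%) and fitted as log2(FPKM + 0.5) with limma 3.58.1 (trend, two-sided) in R 4.3.3, over genes with the equivalent of 10 reads in at least 3 libraries and 15 in all. A log2 difference on this scale understates the change of low genes. Genotypes were compared within a stage in a fit of its 9 libraries, and stages and differences of differences in a fit of all 27. Differences of differences are given for genes that passed the filter at both stages. P-values were adjusted over all genes tested (Benjamini-Hochberg), and an adjusted p under 0.05 is a call. Results were recomputed with median-of-ratios scaling, no scaling, an added 0.1 FPKM, no filter, the replicate number as a block, voom on recovered reads, the 6 compared libraries alone and each library left out. The fit was tested on simulated data.

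Same-numbered libraries of the 3 genotypes deviated together in day 5 CTLs (r = 0.245 to 0.716 over 9 pairs across genes) but not consistently in naive or 12 h cells, and the labels say nothing of a shared day or mouse. P-values measure the spread between these libraries.

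Members and lists were chosen with earlier results of these data known. For genotypes, up to 4 called members in each direction with the smallest adjusted p were named with every library's FPKM, and the other called members with their difference. For WT stages the 4 with the largest change each way were named, and for differences of differences up to 3. Members named beyond this rule were chosen after their values were seen. Promoter windows came from RefSeq, and gene positions and 3' UTRs from GENCODE. Tables were handled in Python 3.11.15 with numpy 2.4.6 and pandas 2.3.3, and figures drawn with matplotlib 3.10.9.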

Additional observations from a re-analysis of the deposited data

Results flagged for a closer look

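For the members named next, the difference between a pair of genotypes was not the same at 2 stages, by the interaction term of the limma model of 27 libraries at an adjusted p under 0.05, over members tested at both stages. The values are changes of the log2 difference from the earlier to the later stage. Comparisons with WT share the WT libraries. The difference of lin28Tg against WT changed from naive cells to day 5 CTLs for Gbp2 (-1.49), Gbp3 (-1.41) and Psmb9 (-0.58). For lin28Tg against WT, from 12 h to day 5 CTLs, the difference changed for Irf9 (-0.71), Dhx58 (-1.29), Psmb9 (-0.68) and Tap1 (-0.66). The difference of let-7Tg against WT changed from 12 h to day 5 CTLs for Oas3 (1.47). For lin28Tg against let-7Tg, from naive cells to 12 h, the difference changed for Oas3 (1.30), Isg15 (1.78) and Gbp3 (-1.15). The difference of lin28Tg against let-7Tg changed from naive cells to day 5 CTLs for Irf9 (-0.78), Dhx58 (-0.90), Ifit2 (-1.51), Oas2 (-1.36), Oas3 (-1.17), Rsad2 (-1.22), Ifitm3 (1.99), Rtp4 (-2.05), Xaf1 (-1.17), Usp18 (-1.63), Gbp2 (-1.89), Gbp3 (-1.62), Igtp (-1.44), Irgm1 (-0.92), Psmb9 (-0.54) and Tap1 (-0.46). For lin28Tg against let-7Tg, from 12 h to day 5 CTLs, the difference changed for Irf9 (-1.06), Irf7 (-1.93), Dhx58 (-1.59), Zbp1 (-2.00), Ifit1 (-1.55), Ifit2 (-1.12), Oas2 (-1.59), Oas3 (-2.47), Rsad2 (-1.94), Eif2ak2 (-1.14), Ifitm3 (2.81), Rtp4 (-2.81), Xaf1 (-2.43), Ifi35 (-0.86), Isg15 (-2.80), Usp18 (-2.85), Trim25 (-0.88), Parp9 (-1.22), Dtx3l (-0.98) and Parp14 (-1.15). Of all genes tested at both stages, 12.0%, 6.71%, 1.52%, 11.2%, 22.8% and 21.2% changed by the same test, in the order of the contrasts above. Members changed less often than all genes in 2 of them. These were lin28Tg against WT from naive cells to CTLs (3 of 40) and lin28Tg against let-7Tg from naive cells to 12 h (3 of 42).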

How the results depend on the processing

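Over 156 alternative counts of called members in the 12 comparisons named above, 115 stayed within 1.5-fold of the printed count and 41 did not; the alternatives were fits with another scaling, added value or filter, with the block, by voom, on 6 libraries or without 1 library. Where a count moved, the cause was not tested. With an added 0.1 FPKM, lin28Tg against WT at 12 h gave 2 members. With no filter it gave 2, let-7Tg against WT gave 0 at 12 h (14 at an unadjusted p under 0.05) and 0 in CTLs (6), and lin28Tg against WT in CTLs gave 1. By voom on recovered reads lin28Tg against WT gave 10 members in naive cells, 0 at 12 h (14 at an unadjusted p under 0.05) and 11 in CTLs, and let-7Tg against WT gave 1 at 12 h. In a fit of the 6 compared libraries, lin28Tg against let-7Tg gave 11 in naive cells, lin28Tg against WT 8 at 12 h and 0 in CTLs (19 at an unadjusted p under 0.05), and let-7Tg against WT 0 at 12 h (12) and 0 in CTLs (7). The difference of Psmb8 between WT CTLs and naive cells reversed to -0.056 by voom (adjusted p = 0.753), from 0.33.

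Leaving out each library in turn gave, for lin28Tg against WT, 2 to 7 members in naive cells, 0 to 2 at 12 h and 0 to 4 in CTLs. For let-7Tg against WT it gave 0 in naive cells, 0 to 4 at 12 h and 0 to 1 in CTLs, and for lin28Tg against let-7Tg 4 to 8, 13 to 24 and 13 to 18. The WT stages gave 41 to 42 members from naive cells to 12 h, 34 to 36 from naive cells to CTLs and 24 to 28 from 12 h to CTLs.

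With the replicate number as a block, lin28Tg against WT in CTLs gave 17 members and lin28Tg against let-7Tg 28. In naive and 12 h cells, where same-numbered libraries correlated at -0.257 to 0.549 over 18 pairs and share only a number, the block gave 7, 0 and 9 members (lin28Tg against WT, let-7Tg against WT, lin28Tg against let-7Tg) and 3, 2 and 22. Gbp3 (lin28Tg against let-7Tg, naive; adjusted p = 0.0505), Dhx58 (lin28Tg against WT, 12 h; 0.0611) and Trim25 (let-7Tg against WT, 12 h; 0.0569) were then not called. No other call in the 12 comparisons was lost. In naive cells Mx1 was gained for lin28Tg against WT, and Mx1, Oas3, Oasl2 and Trim25 for lin28Tg against let-7Tg, and at 12 h Oasl2 was gained for the latter. For members near or under 1 FPKM, such as Rsad2 and Oas1a at 12 h, few reads limit the precision. Ifi44 at 12 h, and Oas1a, Oasl1 and Ifi44 in CTLs, had too few reads for genotypes to be compared.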
